A study of Mus musculus with 4 samples.

Results

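The methionine cycle is the set of reactions that makes S-adenosylmethionine (SAM), the methyl donor for DNA, histone and many other methylations, and turns its product back into methionine. Methionine adenosyltransferases make SAM, methyltransferases use it and release S-adenosylhomocysteine, and S-adenosylhomocysteine hydrolase splits that product into adenosine and homocysteine. Homocysteine is then remethylated to methionine, by methionine synthase with a folate methyl group or by betaine-homocysteine methyltransferase with betaine, or it leaves the cycle towards cysteine through cystathionine beta-synthase. Betaine-dependent remethylation is best known from liver and kidney, and mouse embryonic stem cells (ESCs) are known to depend on a steady supply of methionine and SAM.

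The genes described here are 9 of the 48526 genes in the count tables of R1 mouse ESCs. They were taken by symbol, and all 9 were found: *Bhmt*, *Bhmt2* and *Mtr* for remethylation, *Mat1a*, *Mat2a* and *Mat2b* for SAM synthesis, *Gnmt* and *Ahcy* for SAM use and S-adenosylhomocysteine removal, and *Cbs* for the exit to cysteine. The set was chosen by a measured value, the higher *Bhmt* count in the libraries labelled KO2 than in those labelled WT, so the differences of its members between these libraries are given as a description, without p-values. Whether a member passed the threshold used for all genes is likewise a description and supports nothing. Of the 9 genes, 7 passed the filter on low counts, which left 12883 genes of the series, and *Mat1a* and *Gnmt* did not.

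The study made strand-specific RNA-seq libraries, after depletion of ribosomal RNA, from wild-type R1 ESCs (WT, 2 replicates) and from a *Zfp296* knockout line of the same cells (KO2, 2 replicates), to ask what loss of this NuRD-interacting zinc finger protein does to gene expression. The KO2 line is 1 clone, made with CRISPR/Cas9 and a guide against the first exon of *Zfp296*, transient puromycin selection and isolation of monoclonal lines, so a difference between the genotypes and a difference between this clone and the WT culture cannot be told apart. The methods describe 1 culture for these ESCs: gelatine-coated plates, serum, LIF, the MEK inhibitor PD0325901 and the GSK3 inhibitor CHIR99021. The labels call the replicates biological, and the methods say only that RNA was isolated in duplicate, so the spread between replicates may in part be technical.

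The libraries labelled WT held 2829914 and 4334499 counts on genes and those labelled KO2 held 7470907 and 7437294, so the values of the first group are the less precise. *Zfp296* itself had 31 and 31 counts in the libraries labelled WT and 416 and 282 in those labelled KO2, a level 4.97-fold higher (95% interval 3.29 to 7.52, edgeR quasi-likelihood test, adjusted p = 4.55e-05). This goes against a loss of the RNA in the libraries labelled KO2. Counts over the whole gene do not show a small edit in the first exon, so they do not check the knockout. The Y-linked genes *Ddx3y*, *Uty* and *Eif2s3y* had 1 count together in the libraries labelled WT, and between 723 and 2197 counts each in every library labelled KO2, so the 2 groups also differ in Y-linked RNA. In these counts, exchanged labels and a WT culture without Y-linked RNA cannot be told apart, and exchanged labels would turn every direction given here. The study checked its knockout clones by mass spectrometry of the protein, which was not analysed here. All directions follow the labels of the libraries. Counts of 9 ESC markers summed to between 5650 and 6010 CPM in all 4 libraries, where CPM is a count divided by the scaled total of its library and brought to a common scale. Among them *Sox2* was lower in the libraries labelled KO2, at 869 and 803 against 481 and 487 CPM (log2 difference -0.79 ± 0.10, SE, edgeR, adjusted p = 7.84e-05), and the other 8 were not called. Liver and endoderm markers, which matter here because *Bhmt* and *Mat1a* are liver genes, were low in sum. The 10 of them summed to 15.6 and 5.65 CPM in the libraries labelled WT and to 20.7 and 18.8 CPM in those labelled KO2. *Hnf4a* was the highest of them in every library. *Afp*, *Alb* and *Ttr* were at 0 in every library.

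*Bhmt* and *Bhmt2* are neighbours on mouse chromosome 13 and are read from the same strand. In the mm9 annotation *Bhmt* lies at chr13:94386846-94407916 and *Bhmt2* at chr13:94425675-94444257, both on the minus strand, and their coding sequences were 78.9% identical over the aligned bases. Their promoters are shown because the 2 genes lie side by side and their log2 differences had opposite signs, although that of *Bhmt2* did not pass the threshold used for all genes. These are the 250 bases before each start site from RefSeq (GRCm38.p6, 5′ to 3′ along the gene), at chr13:93637759-93638008 for *Bhmt* and chr13:93674303-93674552 for *Bhmt2*, both on the minus strand, with every CpG dinucleotide in capitals:
Bhmt: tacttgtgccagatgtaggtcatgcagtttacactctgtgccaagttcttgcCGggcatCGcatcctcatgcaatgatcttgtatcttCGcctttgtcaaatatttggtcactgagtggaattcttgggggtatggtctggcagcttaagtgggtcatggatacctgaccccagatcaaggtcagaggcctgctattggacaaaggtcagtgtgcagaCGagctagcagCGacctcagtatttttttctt
Bhmt2: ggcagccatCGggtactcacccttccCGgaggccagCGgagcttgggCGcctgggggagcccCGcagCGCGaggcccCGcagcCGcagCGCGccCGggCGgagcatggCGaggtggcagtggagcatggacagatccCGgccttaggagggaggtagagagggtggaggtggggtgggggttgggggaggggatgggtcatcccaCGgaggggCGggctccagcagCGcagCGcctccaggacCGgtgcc
The stretch before *Bhmt* holds 5 CpGs and that before *Bhmt2* holds 20. The gene *Dmgdh* starts close to *Bhmt2* on the other strand (mm9 chr13:94444388). The stretch before *Bhmt2* may therefore include part of *Dmgdh* and need not belong to *Bhmt2* alone.

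Promoters of 8 of the 9 genes were at hand. From 250 bases before to 50 after the start, the *Bhmt* promoter had 8 CpGs, close to the median of 7 over 32851 RefSeq promoters, and 51.4% of these promoters had fewer. The other 7 held more CpGs than *Bhmt*, from 11 in *Gnmt* to 34 in *Mat2a*, and *Bhmt2* had 26, more than 83.1% of all promoters. The telomere repeat TTAGGG, a sequence linked to ZFP296 in the study and searched on both strands, was found in 10.6% of all promoters and in 1 of the 8, that of *Ahcy*. No binding was measured here, and a match of letters is not a binding site.

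The level of *Bhmt*, for which the set was chosen, was higher in the libraries labelled KO2. Its counts were 188 and 208 in the libraries labelled WT and 868 and 1047 in those labelled KO2, which gave 69.8 and 49.0 CPM against 110 and 139 CPM. Both libraries labelled KO2 lay above both labelled WT, and the 2 groups did not overlap. The means were 59.4 ± 14.7 and 124 ± 21.0 CPM (SD, n = 2), a level 2.12-fold higher (95% interval 1.65 to 2.73), or 1.09 ± 0.17 on the log2 scale (SE). Over all tested genes, 5.64% passed the threshold at an adjusted p of 0.05, 2.61% as higher and 3.04% as lower in the libraries labelled KO2. *Bhmt* was the 1 member of 7 past it, which restates the choice of the set and is not read against this background. In a bulk sample, more cells that express a gene and more RNA in each cell cannot be told apart.

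The liver factor *Hnf4a*, which is one of the endoderm and liver markers, also had more counts in the libraries labelled KO2, with 7.05 and 4.71 CPM against 13.9 and 12.5 CPM. Its log2 difference was 1.22 ± 0.40 (SE, edgeR, adjusted p = 0.0863), which missed the threshold. None of the 3 tested genes of that list was called, and 6 of its 10 genes had at most 3 counts in any library. The part of such cells in the *Bhmt* counts was not tested beyond these values.

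*Bhmt2*, which encodes a related enzyme that methylates homocysteine from S-methylmethionine, stood on the other side. It had 30.1 and 24.7 CPM in the libraries labelled WT and 14.0 and 21.4 CPM in those labelled KO2. Both libraries labelled KO2 were below both labelled WT, by a narrow margin. The log2 difference was -0.61 ± 0.27 (SE, 95% interval -1.17 to -0.05), which did not pass the threshold over all genes. *Mtr*, the cobalamin-dependent methionine synthase, lies far from both on the same chromosome (mm9 chr13:12279086-12350267, minus strand) and had 86.1 and 102 CPM against 99.0 and 95.4 CPM. The libraries labelled KO2 fell between those labelled WT, and the log2 difference was 0.04 (95% interval -0.25 to 0.34). A change of *Mtr* as large as that of *Bhmt* lay outside this interval.

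Set per kilobase of exon, so that genes of unequal length can be compared, the balance of the 3 remethylation transcripts differed between the labelled groups. *Bhmt*, for which the set was chosen, is part of every share and ratio here, so this difference in part restates the choice. Its higher level also lowers the shares of *Bhmt2* and *Mtr*. *Bhmt* made up 28.1% and 20.8% of the summed level of the 3 in the libraries labelled WT and 40.8% and 44.9% in those labelled KO2. *Bhmt2* made up 27.2% and 23.6% against 11.7% and 15.5%, while the shares of *Mtr* overlapped, at 44.7% and 55.7% against 47.5% and 39.6%. The level of *Bhmt* per kilobase was about that of *Bhmt2* in the libraries labelled WT, at ratios of 1.03 and 0.882, and 3.48 and 2.89 times that of *Bhmt2* in those labelled KO2. Per kilobase of the longest transcript, *Bhmt* was above *Bhmt2* in both libraries labelled WT as well, since the exons of *Bhmt* add up to more than its longest transcript. Its ratio to *Mtr* per kilobase of exon was 0.629 and 0.373 against 0.86 and 1.13. These are shares of RNA, and no enzyme was measured in these files. They also rest on the *Bhmt* counts, which near-identical copies of the gene can lower, as described below.

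**Figure D1:**
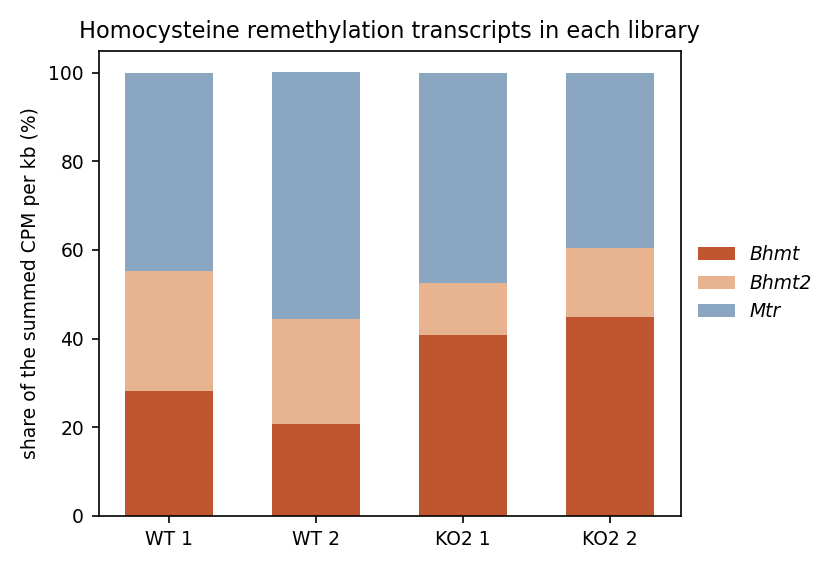
Stacked bars give the share (%) of Bhmt, Bhmt2 and Mtr in their summed CPM per kilobase of exon in each of the 4 libraries, named by their labels. Bhmt takes 20.8% to 28.1% in the libraries labelled WT and 40.8% to 44.9% in those labelled KO2, and Bhmt2 takes the smaller share in those labelled KO2. Bhmt, for which the set was chosen, is part of every sum, so its higher level lowers the other shares.

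Among the SAM synthesis genes, *Mat2a*, which encodes the catalytic subunit of most tissues outside the liver, had the most counts. It had 223 and 234 CPM in the libraries labelled WT and 230 and 205 CPM in those labelled KO2, and the groups overlapped. Its log2 difference was -0.07 ± 0.12 (SE, 95% interval -0.32 to 0.17). The liver-type subunit gene *Mat1a* had no count in the libraries labelled WT and 8 and 0 counts in those labelled KO2, too few to test. Up to 3 counts could be missed in a library at 0, which is 1.12 and 0.709 CPM in the libraries labelled WT (counting error only).

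*Mat2b*, which encodes the regulatory subunit that binds the *Mat2a* product, had 113 and 115 CPM in the libraries labelled WT and 88.7 and 92.2 CPM in those labelled KO2. The replicates lay close together and the groups did not overlap. The log2 difference was -0.33 ± 0.13 (SE, 95% interval -0.61 to -0.05), and it did not pass the threshold over all genes. The level of *Mat2a* per kilobase was 2.91 and 3.01 times that of *Mat2b* in the libraries labelled WT and 3.82 and 3.28 times in those labelled KO2.

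*Ahcy*, whose product removes S-adenosylhomocysteine, an inhibitor of methyltransferases, had 39.7 and 34.1 CPM in the libraries labelled WT and 28.9 and 25.9 CPM in those labelled KO2. Again the groups did not overlap, and the log2 difference of -0.42 ± 0.21 (SE, 95% interval -0.85 to 0.02) did not pass the threshold. *Gnmt*, a glycine methyltransferase of liver that uses up SAM, had 0 and 7 counts in the libraries labelled WT and 9 and 3 in those labelled KO2, and was not tested. *Cbs*, the first enzyme of transsulfuration, had 16.0 and 14.8 CPM against 11.2 and 17.0 CPM, with a log2 difference of -0.12 (95% interval -0.79 to 0.55). The replicates labelled KO2 differed more from each other than the groups did.

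Of the 7 tested members, 1 was called higher, none was called lower and 4 had groups that did not overlap, beside 48.7% of all tested genes whose libraries did not overlap. At an unadjusted p under 0.05 the count was 3 of 7, beside 2501 of 12883 genes, and DESeq2 called 1, beside 454 of 11334 genes. *Bhmt*, whose difference the set was chosen by, is among the 4 and the 3 and is the 1 gene called. These counts are therefore a description and are not read against all genes. The median log2 difference of the members was -0.12, against 0.01 over all tested genes.

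**Figure D2:**
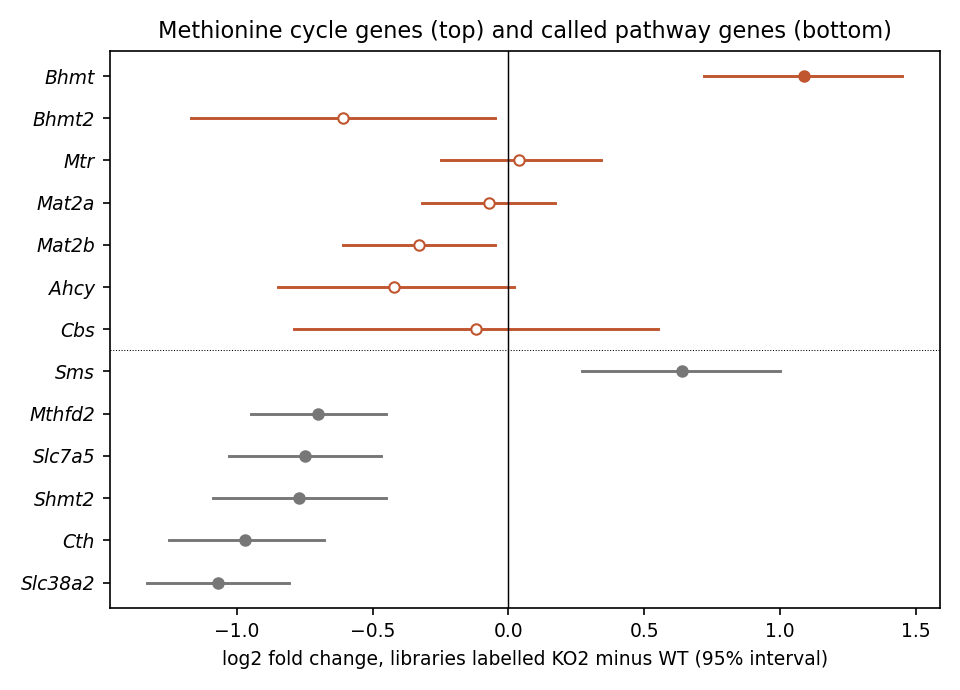
Points give the log2 fold change (libraries labelled KO2 minus WT) and lines its 95% interval from the edgeR fit, for the 7 tested methionine cycle genes above the dotted line and the 6 called pathway genes below it; filled points passed an adjusted p of 0.05. Bhmt lies at 1.09, the other 6 members lie between -0.61 and 0.04, and 5 of the 6 pathway genes lie below 0.

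Ordered by level per kilobase of exon, *Mat2a* led in every library, at 67.5 ± 2.32 CPM per kb in the group labelled WT and 64.1 ± 5.25 in that labelled KO2 (SD, n = 2). In the libraries labelled WT it was followed by *Mat2b* (22.8 ± 0.2 CPM per kb) and *Mtr* (21.8 ± 2.6 CPM per kb), which did not differ beyond their spread. Then came *Ahcy* (13.2 ± 1.41 CPM per kb), *Bhmt2* (11.1 ± 1.53 CPM per kb) and *Bhmt* (10.7 ± 2.66 CPM per kb), whose values overlapped, and then *Cbs* (4.6 ± 0.24 CPM per kb). In the libraries labelled KO2, *Bhmt* stood at 22.5 ± 3.8 CPM per kb beside *Mtr* at 22.6 ± 0.582 CPM per kb, a pair that did not differ beyond its spread. *Mat2b* (18.1 ± 0.493 CPM per kb), *Ahcy* (9.78 ± 0.745 CPM per kb), *Bhmt2* (7.18 ± 2.12 CPM per kb) and *Cbs* (4.23 ± 1.23 CPM per kb) followed. *Gnmt* and *Mat1a* were last in both groups, below 1.4 CPM per kb in every library. The places of *Mat2b* and *Bhmt* depended on the length used: per kilobase of the longest transcript, *Mat2b* stood at 46.3 ± 0.406 and 36.8 ± 1.0 CPM per kb, and *Bhmt* at 17.6 and 12.4 CPM per kb in the libraries labelled WT and 27.6 and 35.2 in those labelled KO2, above *Mtr* in the libraries labelled KO2.

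**Figure D3:**
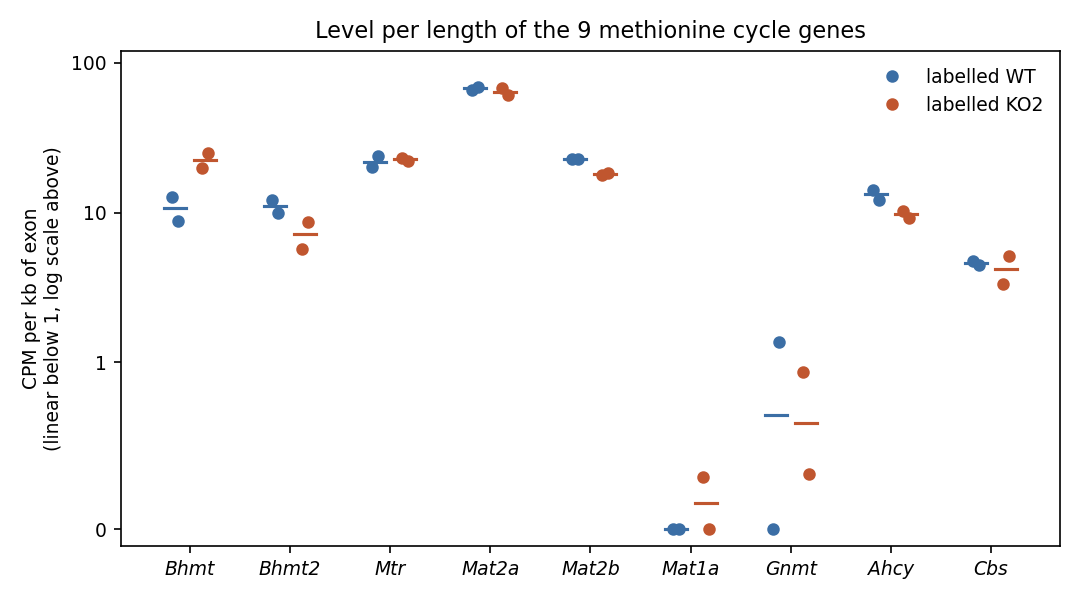
Points are the levels of the 9 genes in each library, as CPM per kb of exon on an axis that is linear below 1 and logarithmic above, and short lines are the means of the 2 libraries of a label. Mat2a is highest in both groups, Bhmt is the member with a higher mean and no overlap in the libraries labelled KO2 among the 7 tested, and Gnmt and Mat1a lie near 0.

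Reads that match several places are listed apart in the files, as 35.61% to 40.38% of all reads or read pairs, so genes with near-identical copies can lose counts. In the mm9 genome, *Bhmt* had 2 copies along its whole coding sequence, at 99.7% and 98.9% identity, and *Ahcy* had 2, at 99.2% and 99.7% (at least 95% identity over at least 200 coding bases). *Mat2a* had 1 such copy at 95.4%, and *Mtr*, *Mat2b*, *Cbs*, *Gnmt* and *Mat1a* had none. *Bhmt2* shared 1 stretch covering 20.0% of its coding sequence, and the partner was *Bhmt* itself (218 aligned bases at 95.9% identity). Reads from this stretch can match both genes. The annotated *Bhmt* copy, *Gm5096*, had 8, 11, 13 and 20 counts in the libraries labelled WT 1, WT 2, KO2 1 and KO2 2. Adding it to *Bhmt*, a choice made after the data were seen, left the log2 difference at 1.04 ± 0.17 (SE). One copy of *Ahcy*, *Gm4737*, had more counts than *Ahcy* itself, at 48.6, 40.0, 36.7 and 33.3 CPM in the same order. Summed with both copies, *Ahcy* had 89.5 and 76.5 CPM against 70.8 and 63.5 CPM, and the log2 difference was -0.30 ± 0.15 (SE). The level of *Ahcy* is therefore uncertain, and its place in the order above is too. Of the 2 copies of *Bhmt* only 1 was annotated and could be added, so its level and place are uncertain too. The level of *Mat2a* may also be too low, while *Mtr* and *Mat2b* had no such copy. Shares and ratios with *Bhmt* or *Mat2a* carry this uncertainty. Reads listed as not unique were 37.02% and 40.38% in the libraries labelled WT and 35.61% in each labelled KO2. Their part in the group differences was not tested. The antisense transcript *Gm15622* overlaps exons of *Bhmt* on the other strand and had 0, 0, 2 and 7 counts. The libraries kept strand, while the strand setting of the counting is not given in the sources used here.

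The genes around *Bhmt* were examined because position had no part in choosing the set. Of 13 genes that start within 500 kb of *Bhmt*, 6 were tested, *Bhmt2* among them. Of these 6, edgeR called none, beside 5.64% of all tested genes, and DESeq2 called none, beside 454 of 11334 genes. An unadjusted p under 0.05 was found for 2 of the 6, beside 2501 of 12883 genes. The next gene beyond *Bhmt2* is *Dmgdh*, whose product is the mitochondrial dehydrogenase that degrades dimethylglycine, the compound that betaine becomes once BHMT has used it. In the mm9 annotation *Bhmt2* starts at chr13:94444257 on the minus strand and *Dmgdh* at chr13:94444388 on the plus strand. These 2 neighbours therefore start almost side by side and are not separate positions. *Dmgdh* starts 36.5 kb from the start of *Bhmt* and had 36.7 and 40.2 CPM in the libraries labelled WT. It had 20.8 and 25.7 CPM in those labelled KO2. The groups did not overlap, and the log2 difference of -0.73 ± 0.21 (SE, edgeR, adjusted p = 0.0505) just missed the threshold, with values from 0.0323 to 0.625 over the alternatives. Without the second library labelled KO2 it passed (edgeR, adjusted p = 0.0323). Here and in every other omission of a library, 1 group is left with 1 sample, which is assumed to vary like the other group, so such p-values are less secure. *Papd4*, *Homer1* and *Jmy*, on the other side of *Bhmt*, had log2 differences of -0.14, -0.26 and 0.05, and *Lhfpl2*, 419.8 kb away, had -1.03 ± 0.49 (SE) at low counts. No tested neighbour was higher by more than 0.05.

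**Figure D4:**
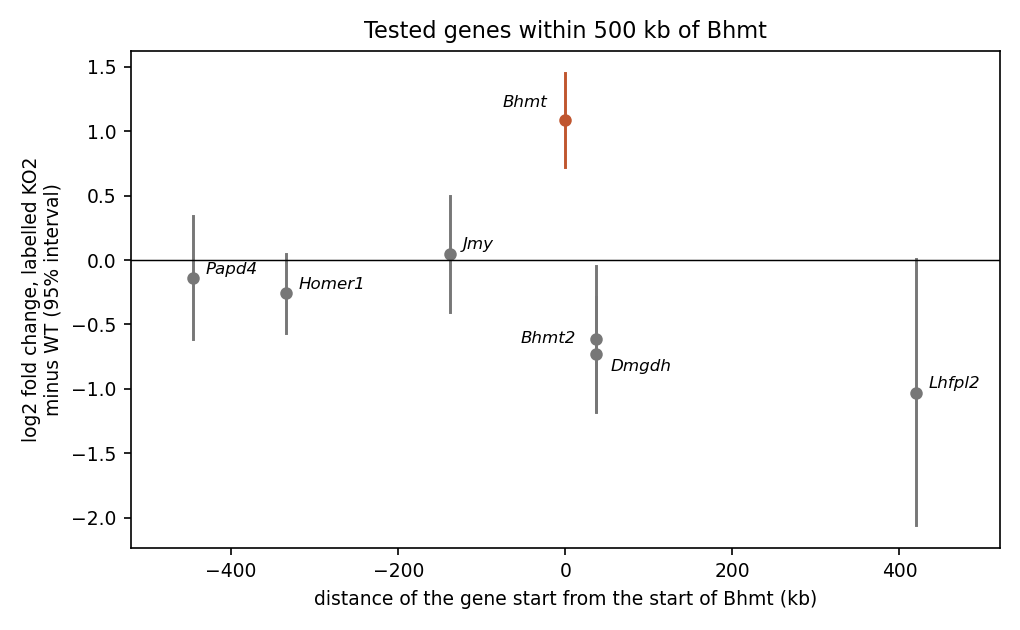
The x axis gives the distance (kb) of each gene start from that of Bhmt and the y axis the log2 fold change with its 95% interval (libraries labelled KO2 minus WT), for Bhmt (orange) and the 6 tested genes within 500 kb (grey). Bhmt lies at 1.09, and the others lie between -1.03 and 0.05.

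The genes that feed and drain the cycle were read from 6 lists by role, 75 genes in all. Of these, 68 were tested and 6 passed the threshold (8.82%, against 5.64% of all genes): 5 were lower in the libraries labelled KO2 and 1 was higher. DESeq2 called 5. The median log2 difference over the lists was -0.06.

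The largest difference among these 6 calls was in import. *Slc38a2*, a sodium-coupled transporter of small neutral amino acids including methionine, had 322 and 382 CPM in the libraries labelled WT and 157 and 179 CPM in those labelled KO2. The log2 difference was -1.07 ± 0.12 (SE, edgeR, adjusted p = 2.23e-05). *Slc7a5*, the light chain of the main transporter of large neutral amino acids, had 169 and 178 CPM against 114 and 92.6 CPM, a difference of -0.75 ± 0.13 (adjusted p = 0.0019). The groups did not overlap for either gene. These were 2 of the 4 tested import genes, and the list did not move one way: *Slc43a2*, another transporter of large neutral amino acids, named after its values were seen, had 7.42 and 4.24 CPM against 14.1 and 9.18 CPM. Its log2 difference was 1.08 ± 0.44 (SE, edgeR, adjusted p = 0.179), which missed the threshold.

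In the folate list, 2 of 26 tested genes were called (7.69%, against 5.64% of all genes). Both lie in the mitochondrial arm that makes one-carbon units from serine. *Mthfd2* had 332 and 278 CPM against 184 and 191 CPM, a log2 difference of -0.70 ± 0.12 (SE, edgeR, adjusted p = 0.00133). *Shmt2*, the serine hydroxymethyltransferase upstream of it, had 87.6 and 110 CPM against 61.2 and 55.1 CPM, or -0.77 ± 0.15 (adjusted p = 0.00509). Without the second library labelled WT the call of *Shmt2* was lost (adjusted p = 0.0818).

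Downstream of *Cbs*, 1 of 10 tested transsulfuration and glutathione genes was called. It was *Cth*, the lyase that splits cystathionine to give cysteine, with 137 and 131 CPM in the libraries labelled WT and 65.6 and 71.6 CPM in those labelled KO2. The log2 difference was -0.97 ± 0.14 (SE, edgeR, adjusted p = 0.000196), so *Cth* fell where *Cbs* gave -0.12 with an interval from -0.79 to 0.55. The difference between these genes was not tested.

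The polyamine and methionine salvage list had 1 call in 9 tested genes (11.1%, against 5.64% of all genes). It was *Sms*, or spermine synthase, at 46.0 and 42.6 CPM against 60.2 and 77.0 CPM. Its log2 difference was 0.64 ± 0.17 (SE, edgeR, adjusted p = 0.0389). The call was lost without the first library labelled WT (0.118), without the second (0.155) and without the second labelled KO2 (0.298), and DESeq2 gave an adjusted p of 0.115.

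No gene was called by edgeR or DESeq2 in the other two lists. Of 6 tested betaine and choline genes, 1 had an unadjusted p under 0.05, beside 2501 of all 12883 tested genes. The genes of this list supply betaine or use its product, and 3 more of them had too few counts to test. In WT 1, WT 2, KO2 1 and KO2 2, *Chdh* had 0, 0, 0 and 19 counts. In the same order *Slc6a12* had 0, 1, 1 and 1, and *Sardh* had 0, 0, 1 and 0. The lowest p values among the tested genes belonged to *Dmgdh*, described above, and to the choline transporter-like gene *Slc44a2*. The level of *Slc44a2* was 17.5 ± 10.6 against 26.1 ± 2.99 CPM (SD, n = 2). The log2 difference of *Slc44a2* was 0.50 ± 0.30 (SE, edgeR, adjusted p = 0.398), and its groups overlapped. It rested on single libraries: without the first library labelled WT it was 0.065, and without the second it was 1.38 and passed (edgeR, adjusted p = 0.0409). Of 13 tested genes that handle SAM or S-adenosylhomocysteine, 3 had an unadjusted p under 0.05, beside the same 2501 of 12883 genes. Neither count is read as a result about its list. *Icmt*, a methyltransferase of prenylated proteins, had 43.1 and 37.9 CPM against 28.5 and 27.7 CPM, and a log2 difference of -0.52 ± 0.20 (SE, edgeR, adjusted p = 0.152). *Nnmt*, which methylates nicotinamide, had 7.05 and 2.35 CPM against 1.01 and 1.86 CPM, and a log2 difference of -1.56 ± 0.71 (SE, edgeR, adjusted p = 0.234). Without the first library labelled WT the difference was -0.71, and over all single omissions it ran from -2.29 to -0.71.

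**Figure D5:**
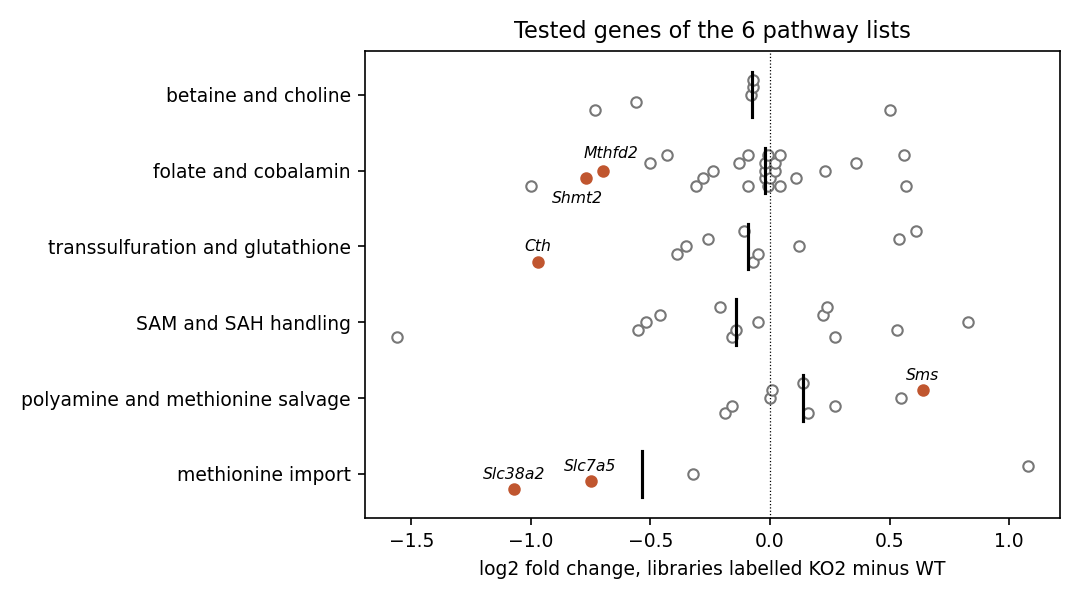
Each point is a tested gene of 1 of 6 lists, placed by its log2 fold change (libraries labelled KO2 minus WT), with the list's median as a black line; filled and named points passed an adjusted p of 0.05 in edgeR. The 6 calls are Slc38a2, Slc7a5, Mthfd2, Shmt2 and Cth below 0 and Sms above 0.

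The tested genes whose pattern over the 4 libraries was nearest to that of *Bhmt* were *Cct6b*, *Cox16* and *Stk39*. Their distances were 0.117, 0.147 and 0.149 between centred log2 CPM values. A small count was added before the log, which shrinks the differences of genes at low counts. Beside 1.09 for *Bhmt*, the fit gave log2 differences of 1.29, 1.33 and 1.41 for these genes. All had low counts, from 4 to 34 per library, and edgeR called none of them (adjusted p = 0.392, 0.300 and 0.327), so likeness over 4 libraries singled out genes whose own differences are poorly measured.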

How the data were processed

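Per the labels and the study's methods, HISAT2 was used for mapping to mm9 and HTSeq for counting, and the authors deposited 1 table of raw, unnormalized counts per library. No version, annotation or counting option is given in the sources used here. The files hold 48526 genes and 92 spike-in entries, and symbols and coordinates came from an mm9 annotation, which matched 32782 genes. Entries that name no gene stayed out of library sizes: reads listed as not unique were 35.61% to 40.38%, without a feature 15.19% to 18.23% and ambiguous 2.08% to 4.06%.

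Counts were scaled by TMM and tested with edgeR 4.0.16 (R 4.3.3) by the quasi-likelihood method with group as the only term, on all genes kept by filterByExpr (minimum count 10, minimum total 15), with Benjamini-Hochberg adjustment over 12883 genes and a threshold of 0.05. Intervals are 95%, standard errors follow from the test statistic, and CPM are mean ± SD. The fit was also run on simulated data, in which every gene had the same spread between replicates. Such data do not show how the calls hold at the uneven spread of these libraries. For WT 1, WT 2, KO2 1 and KO2 2, the level of 3 counts was 1.12, 0.709, 0.38 and 0.401 CPM. The spread between replicates was above sampling noise in both groups (chi-square per gene 5.92 and 21.3), so none was merged. Alternatives were DESeq2 1.42.0, other scalings and filters, a replicate block and leaving out each library.

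The members and lists were chosen with earlier results of these data known. Named are all members, tested neighbours of *Bhmt*, called pathway genes (in a list without calls, those with the lowest p), the genes nearest to *Bhmt* in pattern and checks of the lines. Copies were found with BLAST in the mm9 genome. Some listed marker genes are not reported here, and protein sequences were not used here, so the relatedness of *Bhmt* and *Bhmt2* is given for coding sequence.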

Additional observations from a re-analysis of the deposited data

How the results depend on the processing

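The log2 difference of *Bhmt* ranged from 0.83 to 1.35 over 12 alternatives. Its direction and call restate the choice of the set and say nothing of stability. The count of called members was 1 in each alternative except without a filter, where it was 0 (25397 genes tested and 61 called in all). Calls among the pathway genes went from 6 to 0 with scaling to the spike-ins and to 0 without a filter. Over all genes, spike-in scaling left 163 calls and moved the median log2 difference to 0.09. These rest on 2515 to 7024 spike-in counts per library. Calls among the neighbours of *Bhmt* went from 0 to 1 with DESeq2's size factors (RLE) and to 1 with the replicate block, each time *Dmgdh*. The cause of these changes was not tested.

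Leaving out 1 library leaves a group of 1 sample, whose spread is taken from the other group. It gave 1 called member each time, 5 to 6 called pathway genes and 0 to 1 neighbours, while calls over all genes ranged from 270 (without WT 1) to 691. Single omissions turned the sign of small differences: *Mat2a* ranged from -0.16 to 0.00 (0.0038), *Mtr* from -0.068 to 0.18, *Cbs* from -0.45 to 0.16, *Jmy* from -0.13 to 0.21 and *Papd4* from -0.31 to 0.12. With spike-in scaling *Mat2a* was 0.0063. Replicate numbers did not pair the samples (correlation of deviations -0.00658). In the same way, *Bhmt2* ranged from -0.95 to -0.33 and was never called. The replicate block gave 950 calls over all genes against 727 and changed no call of a member. DESeq2 called 454 genes, the older quasi-likelihood method 656. Of 293 alternative values of 25 named genes, 263 kept direction and side of the threshold, 19 lost the call, 4 gained it and 7 changed sign. With 2829914 gene counts in the shallowest library, *Mat1a* and *Gnmt* could not be compared.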
